A study of Mus musculus with 12 samples.

Results

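The endoderm factors described here are 9 genes, Gata4, Gata6, Sox7, Sox17, Foxa2, Hnf4a, Dab2, Afp and Cubn, out of 20811 named genes on the array. They were chosen by name, and every probe carrying one of these names or an accession of the same gene was read, which gave 20 of 41174 probes. The samples were mouse embryonic stem (ES) cells, cultured pluripotent cells of the early embryo, either kept undifferentiated or exposed to retinoic acid, a nuclear receptor ligand made from vitamin A, for 3 days. Each group had 3 biological samples with 2 technical arrays each, all hybridised in 1 colour (Cy3) after 1 round of RNA amplification. The labels used here give no cell line, medium, feeder layer or retinoic acid dose. Whether replicates came from separate cultures is not stated either, so p-values measure only the spread between these samples, which may be technical.

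Endoderm arises more than once in the mouse embryo. Primitive endoderm separates from the pluripotent epiblast in the blastocyst and gives visceral endoderm, an absorptive and secretory epithelium, and parietal endoderm, which lays down a thick basement membrane, whereas definitive endoderm forms at gastrulation and gives the gut tube. The GATA factors Gata6 and Gata4 and the SRY-box factors Sox17 and Sox7 act early in primitive endoderm. Sox17 and Foxa2 are also factors of definitive endoderm, and Hnf4a drives secretory genes of visceral endoderm and liver. Cubn and Afp are products of the differentiated epithelium, and Dab2 is an endocytic adaptor.

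After retinoic acid the early factors Gata6, Sox17 and Sox7 and the endocytic adaptor Dab2 were higher, while Gata4, Foxa2, Hnf4a, Afp and Cubn were not called. A probe was called at an adjusted p under 0.05 in a limma fit over the 26587 probes bright enough to test. Of the 20 probes of the 9 genes, 14 were tested, of which 6 probes of 4 genes were called higher, 0 were called lower and 8 were not called. The groups did not overlap for 8 of the 14, against 42.4% of all probes. Over all probes tested 14.0% were called higher and 11.5% lower. At an unadjusted p under 0.05, limma gave 1 lower probe of these genes, a dim probe of Hnf4a. Background on an array was set at the 95th percentile of its negative controls, and a probe needed to lie above it on 4 or more of the 6 arrays of a group to be tested. Of the 14 probes, 5 passed only through the retinoic acid arrays and 1 only through the undifferentiated arrays. Among the 6 called higher, 2 passed only through the retinoic acid arrays, the second probes of Gata6 and Sox17, so the call of each of the 4 genes is read from its brightest probe. Levels are log2 of the quantile-normalized net intensity plus 50, a scale that understates the change of dim probes. These are bulk samples, in which fewer cells of a type and less RNA per cell cannot be told apart.

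**Figure D1:**
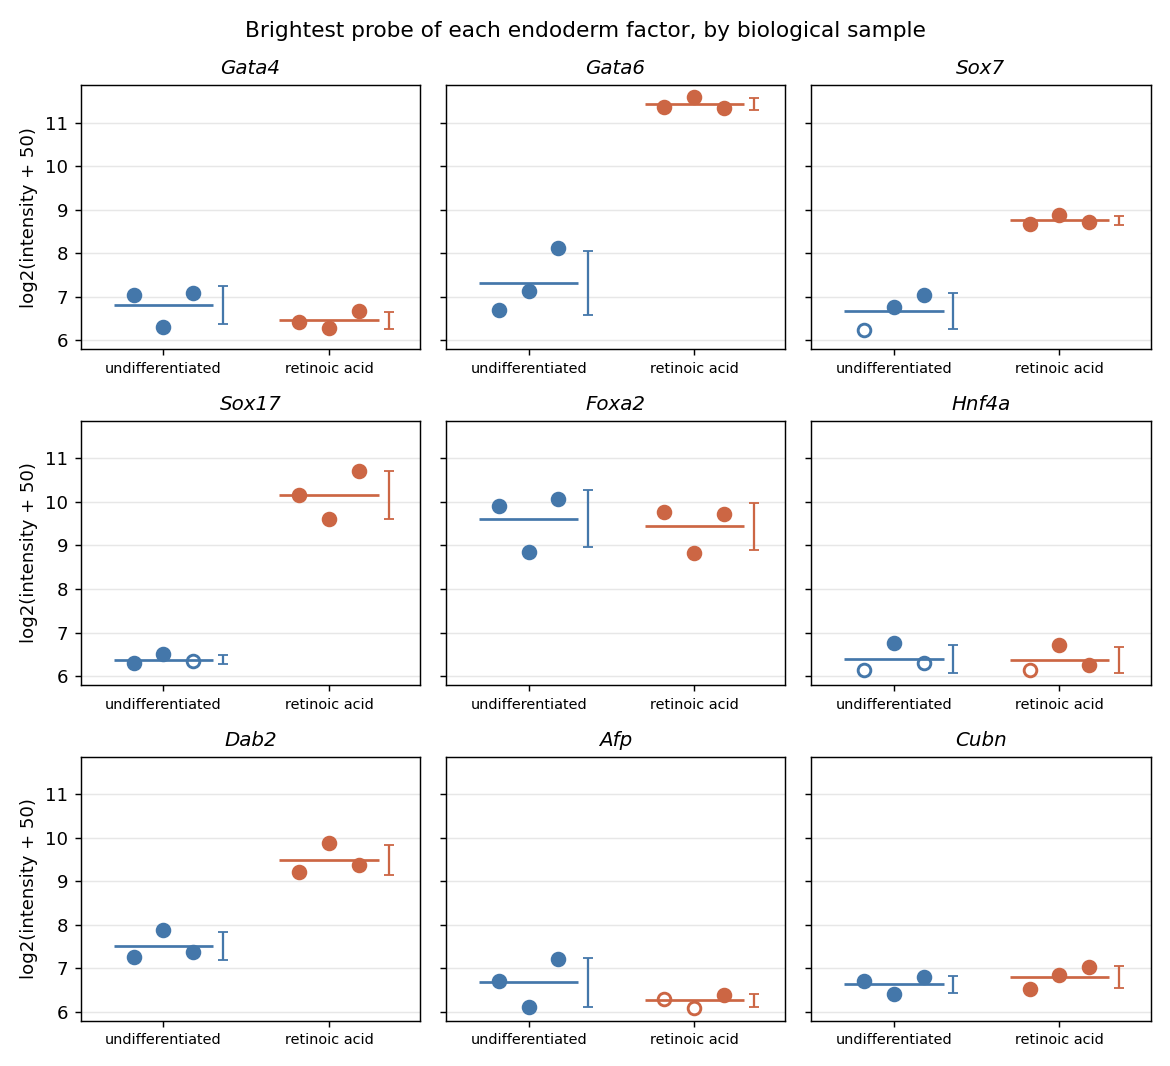
Level of the brightest probe of each of the 9 genes, as log2(intensity + 50), in the 3 undifferentiated and 3 retinoic acid samples (replicates 1 to 3 from left to right, technical arrays averaged). Lines are means and bars SD, and an open point marks a sample in which at least 1 of its 2 technical arrays was not above background. The groups separate for Gata6, Sox7, Sox17 and Dab2 and overlap for the other genes.

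Across the 12 arrays the median net intensity was 37.4 to 96.6, the background limit was 8.50 to 51.6, and 53.8% to 85.0% of the probes were above it. Technical arrays of a sample correlated at 0.9902 to 0.9982 and samples of a group at 0.9563 to 0.9908. The undifferentiated samples held the ES cell programme: of 13 ES cell markers tested, all above background on every undifferentiated array, 12 fell and Dppa5a was not called on its brightest probe (-0.32), although another of its probes was called lower (-0.87, limma, adjusted p = 0.0161). The falls were deepest for Nr0b1 (-6.34), Tdgf1 (-5.83) and Esrrb (-4.86) on the log2 scale, and the summed intensity of the list was 146674.7 to 194314.2 undifferentiated and 36973.6 to 47197.4 after retinoic acid.

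Gata6, the GATA factor that directs blastocyst cells to primitive endoderm, rose on its brightest probe. That probe read 6.70, 7.12 and 8.13 in undifferentiated replicates 1, 2 and 3, and 11.37, 11.59 and 11.33 after retinoic acid. The treated samples lay close together and above all the undifferentiated ones, of which replicate 3 was the highest. The rise was 4.11 ± 0.34 (SE) on the log2 scale, or 17.3-fold (limma, adjusted p = 0.000173), and 0.203% of the probes tested rose more. All 12 arrays were above background for this probe. A second probe of the same accession read 6.05, 5.85 and 6.28 undifferentiated and 7.56, 7.31 and 7.84 after retinoic acid, again without overlap. It was above background on 1 of 6 undifferentiated and 6 of 6 retinoic acid arrays, so it passed the filter only through the group where it is high and adds no independent support. Its difference of 1.51 (limma, adjusted p = 0.00138) was 3.13 when 1 in place of 50 was added before taking log2. The third Gata6 probe was above background on 1 of 12 arrays and was not tested.

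Gata4, the relative of Gata6 that acts with it in primitive endoderm and heart, was not called on either probe. The brighter probe read 7.04, 6.30 and 7.09 undifferentiated and 6.41, 6.28 and 6.67 after retinoic acid. The groups overlapped, with undifferentiated replicate 2 among the treated samples. The difference was -0.35 (95% interval -0.92 to 0.21; limma, adjusted p = 0.335). Without undifferentiated replicate 2 this probe was called lower (-0.61, limma, adjusted p = 0.0422). The dimmer Gata4 probe read 6.14, 6.41 and 6.11 undifferentiated and 6.45, 6.28 and 6.46 after retinoic acid. Its groups overlapped, with a difference of 0.17 (95% interval -0.19 to 0.54). With 2 of 6 undifferentiated and 6 of 6 retinoic acid arrays above background, it passed the filter only through the retinoic acid arrays.

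The difference between both GATA factors was tested directly on their brightest probes. The change of Gata6 exceeded that of Gata4 by 4.46 on the log2 scale, and the within-sample differences of the groups did not overlap (exact permutation test, two-sided p = 0.1, the smallest that 3 against 3 samples can give). Of the other GATA genes in the lists compared here, Gata3, a trophoblast factor, rose by 3.60 ± 0.21 (SE) and Gata2, a factor of trophoblast and of blood and vessel cells, by 2.0 ± 0.19 (SE). Gata5, a cardiac and gut factor named here after its value was seen, differed by 0.41 and was not called (limma, adjusted p = 0.111).

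Sox17, an SRY-box factor of primitive and definitive endoderm and of endothelium, rose on its brightest probe. That probe read 6.30, 6.50 and 6.34 undifferentiated and 10.17, 9.60 and 10.71 after retinoic acid. All treated samples were far above all undifferentiated ones, with replicate 2 the lowest of the treated. The rise was 3.78 ± 0.27 (SE), or 13.7-fold (limma, adjusted p = 9.48e-05), with 4 of 6 undifferentiated arrays above background. The other probe read 6.03, 5.76 and 6.45 undifferentiated and 10.43, 9.88 and 10.63 after retinoic acid. The order of the treated samples was the same on both probes. With 1 of 6 undifferentiated arrays above background, this probe too passed the filter only through the retinoic acid arrays, so its difference of 4.23 (limma, adjusted p = 4.8e-05), which was 6.37 with 1 added, is given as a description. The 2 remaining Sox17 probes, one on the same accession and one on another, were above background on 1 and 0 of 12 arrays and were not tested.

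Sox7, the related factor of primitive endoderm and endothelium, rose on the probe that could be tested. Its brighter probe read 6.23, 6.76 and 7.05 undifferentiated and 8.67, 8.87 and 8.72 after retinoic acid. The treated samples lay close together and all above the undifferentiated ones. The rise was 2.07 ± 0.22 (SE), or 4.21-fold (limma, adjusted p = 0.000585), with 5 of 6 undifferentiated arrays above background. The other Sox7 probe was above background on 2 undifferentiated and 3 retinoic acid arrays, too few to be tested. The change of Sox17 exceeded that of Sox7 by 1.70 (exact permutation test, two-sided p = 0.1, the smallest possible).

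**Figure D2:**
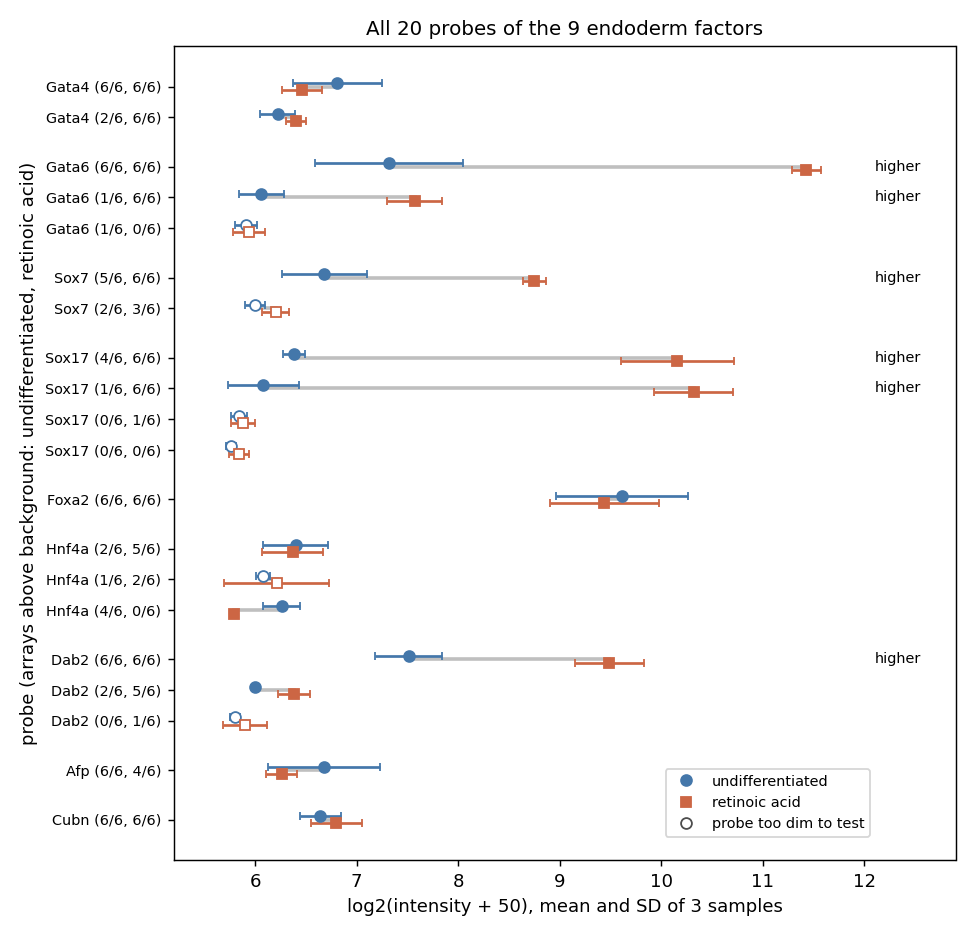
Mean and SD over 3 samples, as log2(intensity + 50), of all 20 probes of the 9 genes in undifferentiated (circles) and retinoic acid (squares) samples, with the number of arrays above background in each group beside the gene. Open symbols are the 6 probes too dim to test; the 6 probes called higher belong to Gata6, Sox7, Sox17 and Dab2.

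Foxa2, the forkhead factor of definitive endoderm and of the neural floor plate, was well above background before treatment and was not called. Its single probe read 9.90, 8.86 and 10.07 undifferentiated and 9.76, 8.82 and 9.73 after retinoic acid. The groups overlapped, and replicate 2 was the lowest in both. The difference was -0.17 (95% interval -1.05 to 0.71; limma, adjusted p = 0.786). The change of Sox17 exceeded that of Foxa2 by 3.95 (exact permutation test, two-sided p = 0.1, the smallest possible). Its relative Foxa1 went from 6.24 ± 0.07 (SD, n = 3) to 9.54 ± 0.40 (SD, n = 3), a rise of 3.29 ± 0.22 (SE; limma, adjusted p = 6.7e-05). With 3 of 6 undifferentiated arrays above background, Foxa1 passed the filter only through the retinoic acid arrays, so its difference is given as a description. Foxa3, named after its value was seen, differed by -0.01.

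Hnf4a, the nuclear receptor that drives secreted visceral endoderm and liver products, stayed near background. Its brightest probe read 6.14, 6.75 and 6.30 undifferentiated and 6.14, 6.71 and 6.26 after retinoic acid. With 2 of 6 undifferentiated and 5 of 6 retinoic acid arrays above background, it passed the filter only through the retinoic acid arrays. The groups covered nearly the same range, and the difference was -0.03 (95% interval -0.55 to 0.50; limma, adjusted p = 0.947). A dimmer probe of the same accession read 6.24, 6.45 and 6.08 undifferentiated and 5.78, 5.81 and 5.77 after retinoic acid. These groups did not overlap, but the difference of -0.47 was not called (limma, adjusted p = 0.0613; called lower in 5 alternatives), with 4 undifferentiated and 0 retinoic acid arrays above background. Set against the background limit, the mean of this probe was at least 1.05-fold higher undifferentiated, a ratio that does not allow for the spread between samples. The third probe was above background on 3 of 12 arrays and was not tested.

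Dab2, a clathrin adaptor that carries lipoprotein and scavenger receptors into visceral endoderm cells, rose. Its brightest probe read 7.27, 7.88 and 7.38 undifferentiated and 9.22, 9.87 and 9.37 after retinoic acid. Replicate 2 was the highest in both groups, and the groups did not overlap. The rise was 1.98 ± 0.24 (SE), or 3.94-fold (limma, adjusted p = 0.00099), with all 12 arrays above background. A dimmer probe of the same accession read 5.99, 6.03 and 5.97 undifferentiated and 6.19, 6.48 and 6.47 after retinoic acid. It also did not overlap but was not called (0.38, limma, adjusted p = 0.106; called higher in 3 alternatives), with 2 undifferentiated and 5 retinoic acid arrays above background. The third Dab2 probe was above background on 1 of 12 arrays.

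Cubn, the cubilin receptor that takes up intrinsic factor, a vitamin B12 carrier, and apolipoproteins together with Amn and Lrp2, was not called. Its single probe read 6.70, 6.42 and 6.79 undifferentiated and 6.53, 6.85 and 7.03 after retinoic acid. The groups overlapped, all 12 arrays were above background, and the difference was 0.17 (95% interval -0.28 to 0.61; limma, adjusted p = 0.573). The change of Dab2 exceeded that of Cubn by 1.81 (exact permutation test, two-sided p = 0.1, the smallest possible). The 4 differences of this kind (Gata6 and Gata4, Sox17 and Sox7, Sox17 and Foxa2, Dab2 and Cubn) each had an adjusted p of 0.1 by the exact test.

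Afp, alpha-fetoprotein, the main serum protein of visceral endoderm and fetal liver, was not called. Its single probe read 6.70, 6.11 and 7.22 undifferentiated and 6.30, 6.10 and 6.39 after retinoic acid. Replicate 2 was the lowest in both groups and the groups overlapped. The difference was -0.41 (95% interval -1.05 to 0.23; limma, adjusted p = 0.321), with 6 undifferentiated and 4 retinoic acid arrays above background. Without undifferentiated replicate 2 it was called lower (-0.70, limma, adjusted p = 0.0476).

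The upstream windows of Dab2, which rose, and of Afp, which was not called, are printed because GATA factors are known to act on endoderm promoters. They are the 250 bases before each RefSeq start of GRCm38.p6, and the capitals mark a GATA word (the letters GATA preceded by A or T and followed by A or G, on either strand).
Dab2, first start, chr15:6299539-6299788, plus strand: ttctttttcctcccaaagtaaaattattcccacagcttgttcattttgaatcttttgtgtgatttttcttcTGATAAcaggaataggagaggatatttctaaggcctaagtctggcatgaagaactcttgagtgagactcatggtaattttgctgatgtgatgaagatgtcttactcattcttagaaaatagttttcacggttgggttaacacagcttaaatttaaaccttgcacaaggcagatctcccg
Dab2, second start, chr15:6386498-6386747, plus strand: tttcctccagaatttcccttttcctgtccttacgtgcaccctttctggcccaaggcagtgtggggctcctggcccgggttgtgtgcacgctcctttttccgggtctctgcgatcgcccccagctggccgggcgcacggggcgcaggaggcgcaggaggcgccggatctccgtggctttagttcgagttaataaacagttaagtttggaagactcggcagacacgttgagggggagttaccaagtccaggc
Afp, chr5:90490464-90490713, plus strand: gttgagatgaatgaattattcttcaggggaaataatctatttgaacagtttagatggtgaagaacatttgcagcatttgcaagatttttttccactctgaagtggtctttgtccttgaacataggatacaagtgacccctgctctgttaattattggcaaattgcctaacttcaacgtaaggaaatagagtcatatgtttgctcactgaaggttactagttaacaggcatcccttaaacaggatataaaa
The first Dab2 window held TGATAA with its first base 179 bases before the start, and no such word was in the second Dab2 window or in that of Afp. Windows of 5 of the 9 genes were read, 9 windows in all, of which 3 held a GATA word, 1 each of Dab2, Foxa2 and Hnf4a. Over all 32851 windows of this length 26.5% held a GATA word. The words are letter matches and no record of binding.

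By the distance between the 6 sample values on the log2 scale, the named genes most like Gata6 were Hmgn3 (0.91), Rgma (1.35) and Spsb4 (1.37). Sox17 was closest to Fbn2 (0.36), Pkdcc (0.82) and Hoxa9 (0.85). Sox7 was closest to Ankrd44 (0.39), Septin4 (0.43) and Mfap4 (0.45), and Dab2 to Marveld2 (0.31), 0610040J01Rik (0.44) and Rnf103 (0.44). These distances are taken over 6 samples that fall into 2 groups, so genes with a like step between the groups are close whatever their role.

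The rest of the endoderm programme was read on the brightest probe of each gene of 5 lists. Over all named genes read this way, 17.7% of 15195 were called higher, 12.4% lower, and the median difference was 0.00. Some genes, such as Lrp2, Foxa1, Krt19 and Gata2, are in more than 1 of the lists used here. Of 11 regulators of primitive endoderm other than the 9 factors, 2 rose, 3 fell and 6 were not called, with a median of -0.28. With each array scaled to its median or 75th percentile, 1 rose and 5 fell. Fgfr2, an FGF receptor of primitive endoderm, rose by 1.93 ± 0.16 (SE; limma, adjusted p = 0.000175), although its second probe differed by -0.56. Lrp2, the megalin receptor that works with Cubn and Dab2, rose by 0.85 ± 0.24 (SE; limma, adjusted p = 0.0368), a call lost in 10 alternatives with adjusted p up to 0.157. Pdgfra, the receptor commonly used to mark primitive endoderm, was not called (-0.25), nor was Fgfr1 (-0.28). The other tested Fgfr1 probes differed by 0.30, 1.03 and 0.31 and were not called either. Nr5a2 fell by 3.41, Klf5 by 3.21 and the basement membrane gene Nid2 by 0.98, the first pair being genes that ES cells also express.

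Of 37 visceral endoderm genes, 28 were tested, 6 rose, 4 fell and 18 were not called, with a median of -0.03. With all 12 arrays fitted and the sample as a random block, 7 fell. Foxa1 rose as given above, Msx1, a homeobox factor, by 3.07 and S100g, a calcium-binding protein, by 1.79. A second Msx1 probe was called the other way (-0.53). Spink1, a protease inhibitor, fell by 3.42 and the peptidase Dpp4 by 2.22. Of the secreted products in the list, Ttr, transthyretin, was above background on no array, Apoa1 on 1 undifferentiated array and 0 retinoic acid arrays, and Apoa2 differed by -0.01. The secreted products Apoe, Trf and Apom, picked after their values were seen, were above background on all 12 arrays and were not called. Rbp4, the retinol carrier, and Cited1, a transcriptional coregulator, were named after their values were seen and rose by 1.61 and 1.51.

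Of 23 parietal endoderm genes, 22 were tested, 12 rose, 3 fell and 7 were not called, with a median of 1.20. Those that rose most were the simple epithelial keratins Krt19 (5.15), Krt18 (4.78) and Krt8 (4.65). The summed intensity of the list was 33922.3 to 43231.7 undifferentiated and 116132.7 to 121561.0 after retinoic acid. Much of the treated sum came from these keratins. Krt18 held 643.2 to 1947.0 undifferentiated and 29900.0 to 36460.0 treated, Krt8 359.2 to 869.1 and 15870.0 to 18970.0, and Krt19 51.86 to 193.6 and 5437.0 to 6903.0. Among basement membrane genes, Lamb1 rose by 1.21 ± 0.17 (SE), while Lama1 (-0.52, limma, adjusted p = 0.0571) and Lamc1 (-0.06) were not called. The collagen chains Col4a1 and Col4a2 and the protease Plat, named after their values were seen, rose by 2.67 ± 0.31 (SE), 3.12 ± 0.29 (SE) and 4.09 ± 0.19 (SE). Pga5 fell by 2.98, the basement membrane linker Nid1 by 1.71 and the coagulation inhibitor Tfpi by 0.95. With 3 of 6 retinoic acid arrays above background, Pga5 passed the filter only through the undifferentiated arrays. Keratins, vimentin and collagens are also made by other cell types.

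Of 10 anterior visceral endoderm genes, 8 were tested, 1 rose, 2 fell and 5 were not called. The Wnt inhibitor Dkk1 rose by 2.79, the Nodal inhibitor Lefty1 fell by 4.73 and the Wnt receptor Fzd5 by 1.40. Dkk1 passed the filter only through the retinoic acid arrays (3 of 6 undifferentiated arrays above background). Fzd5 passed only through the undifferentiated ones (2 of 6 retinoic acid arrays above background), so both differences are given as descriptions. Hhex was not called (-0.47) and Cer1, above background on 1 of 12 arrays, was not tested. Of 33 genes of definitive endoderm and gut, 29 were tested, 8 rose, 5 fell and 16 were not called, with a median of -0.11. With only probes above background on all 12 arrays, 3 rose and 5 fell. Besides Krt19 and Foxa1, the peptide-processing enzyme Cpe rose by 2.75. The Nodal coreceptor Tdgf1 (-5.83), the releasing hormone Trh (-4.51) and Sox2 (-3.05) fell. The mesendoderm factors Gsc (0.03) and Eomes (-0.47) were not called, and Mixl1 was above background on 2 undifferentiated arrays and 0 retinoic acid arrays.

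**Figure D3:**
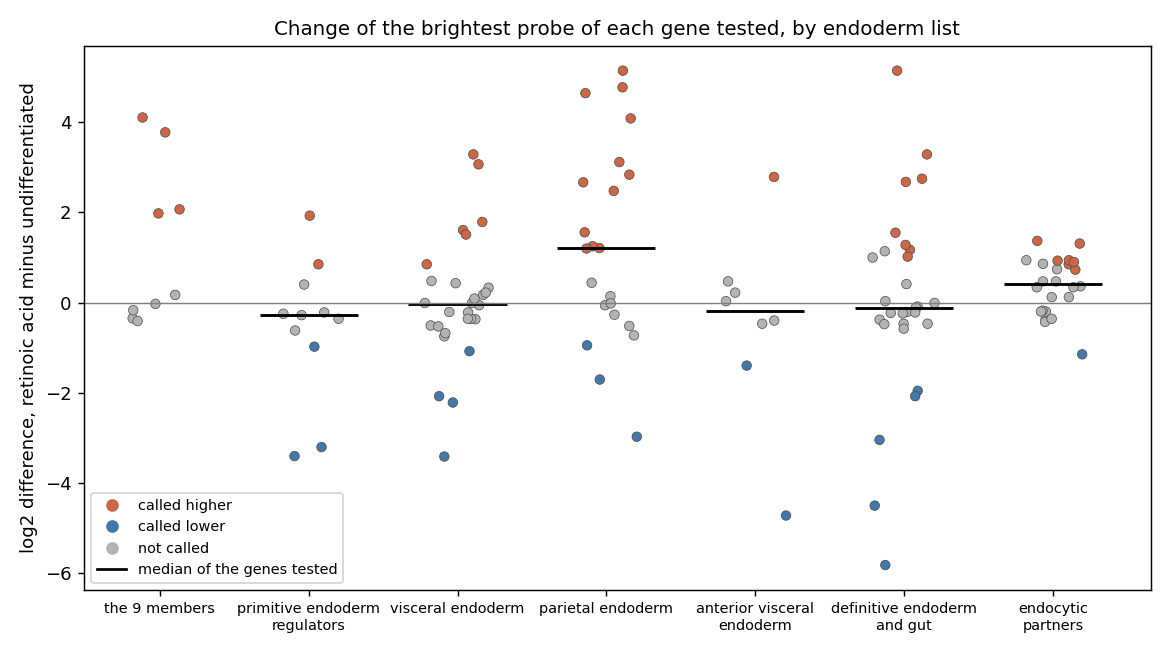
Log2 difference, retinoic acid minus undifferentiated, of the brightest probe of each gene tested in the endoderm lists; each point is a gene, the colour gives its call, and the black line is the median of the list. The parietal endoderm median is 1.20, while the medians of the primitive endoderm regulators, visceral, anterior visceral and definitive endoderm lists lie between -0.28 and -0.03.

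For the uptake machinery around Dab2 and Cubn, of 25 endocytic partners, 24 were tested, 7 rose, 1 fell and 16 were not called, with a median of 0.41. Without retinoic acid replicate 1 or replicate 3, 4 rose. Tcn2, the transcobalamin carrier of vitamin B12, rose by 1.37, the receptor Lrp1 by 1.31 and the clathrin adaptor Eps15 by 0.94, and the clathrin light chain Cltb fell by 1.15. The call of Lrp1 was lost in 5 alternatives, with adjusted p up to 0.0853. Amn, the membrane partner of Cubn, was not called (-0.37). Cblif, the intrinsic factor that Cubn takes up, was named after its value was seen and was above background on no array. Dimmer probes were not called for Lrp1 (0.51), Lrp2 (0.75, 0.08 and 0.31) or 1 of those of Eps15 (0.15), nor, in the other lists, for Hand2 (0.59), Fzd5 (-0.48), 1 of those of Dpp4 (-0.59) or 1 of those of Tfpi (-0.38).

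Markers of other cells that use the same factors were read beside them, and their part in these results was not tested. The shares to set beside their counts are those of all named genes, 17.7% called higher and 12.4% lower. Gata6 and Gata4 also act in the heart: of 18 cardiac genes 16 were tested, 4 rose and 0 fell by limma (1 lower at an unadjusted p under 0.05, Isl1), with summed intensities of 1570.0 to 1775.2 undifferentiated and 2387.7 to 2588.8 after retinoic acid. The heart factors Nkx2-5 and Hand2 rose by 1.91 and 1.31 and the actin Actc1 by 1.32, while Hand1 was not called (0.43). Hand2, above background on 2 of 6 undifferentiated arrays, passed the filter only through the retinoic acid arrays. Without retinoic acid replicate 3, 2 of the cardiac genes rose. Sox17 and Sox7 also act in endothelium: of 19 endothelial genes 15 were tested, 3 rose and 3 fell, with sums of 2087.6 to 3533.3 undifferentiated and 1613.4 to 3607.3 after retinoic acid. Gata2 rose as given above, the VEGF receptor Flt1 by 1.68 and the factor Erg, above background on 0 of 6 undifferentiated arrays, by 0.75. Set against the background limit, the mean of Erg was at least 2.25-fold higher after retinoic acid, a ratio that does not allow for the spread between samples. Flt1 was above background on 2 of 6 undifferentiated arrays, so Flt1 and Erg passed the filter only through the retinoic acid arrays. The clotting factor Vwf fell by 1.83, the factor Etv2 by 0.91 and the junction protein Esam by 0.53, of which 1 was called without retinoic acid replicate 1 or 3. Of the defining receptors, Kdr (-0.30) and Tek (-0.11) were not called. Sox18, the third member of the same Sox subgroup, was named after its value was seen and was not called (0.27, limma, adjusted p = 0.336).

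Foxa2 and Foxa1 also mark the neural floor plate. Of 12 floor plate and ventral neural genes 5 were tested, Foxa1 and Pax6 (1.71, with -0.25 and no call on a second Pax6 probe) rose and 0 fell by limma (also 0 lower at an unadjusted p under 0.05), with sums of 669.2 to 790.7 undifferentiated and 2122.0 to 2690.9 after retinoic acid. Shh, its defining signal, was above background on 3 undifferentiated arrays and 0 retinoic acid arrays and was not tested. Of 14 trophoblast genes 12 were tested, 5 rose and 2 fell, with sums of 3762.4 to 5715.7 undifferentiated and 6849.1 to 9020.7 after retinoic acid. Krt7, a keratin, rose by 4.20, Gata3 as given above and the placental homeobox gene Esx1 by 2.96, while Tfap2c (-3.08) and Plet1 (-1.49) fell, and Elf5 was above background on no array. Of 15 fibroblast genes, 12 were tested, 6 rose and 1 fell, with sums of 9823.5 to 20185.0 undifferentiated and 36917.8 to 45552.8 after retinoic acid. The smooth muscle and fibroblast protein Tagln rose by 5.25, the collagen Col1a2 by 3.39 and the receptor Pdgfrb by 2.47, while Thy1, a fibroblast surface marker, fell by 2.07.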

How the data were processed

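Total RNA of the 6 biological samples was hybridised to 12 arrays. The deposited scanner tables give each spot's net mean intensity, per the file headers, so local background was already subtracted, by a method the labels do not state. R 2.15.0 and limma are named in the submitters' processing notes, and the authors also deposited processed intensity values, which served as an alternative. The header of undifferentiated replicate 2, technical array 2, carries the name of technical array 1, although the values of both arrays differ.

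Probes were named through accessions, symbols and older symbols matched to RefSeq's GRCm38.p6 gene table. No label names the array's genome build, so probe coordinates are left out, and the promoter windows are RefSeq's. Intensities were quantile-normalized, 50 was added and log2 taken. Technical arrays were averaged, and 3 samples were compared with 3 by limma 3.58.1 in R 4.3.3 (lmFit and eBayes, two-sided, no covariates, Benjamini-Hochberg over all probes tested, adjusted p under 0.05), tested first on simulated data. Python 3.11.15 and matplotlib 3.10.9 made tables and plots. The background limit used 27 negative control spots. The number and spread of the arrays limit the precision.

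The members, lists and tests were chosen with earlier results of these data known. Named were all 9 members, up to 3 genes called each way with the largest change on the brightest probe of each list, uncalled genes among a list's first 3, and the 3 genes nearest each called member; some genes that this rule names are not reported here, though they stay in the counts, and others are said to be named after their values were seen. Alternatives covered scaling, the added value, the filter on dim probes, single technical arrays, the doubtful array, the replicate block, the variance model, the threshold and each sample left out. Same-numbered samples of the groups deviated together with correlations of -0.0499, 0.2831 and 0.1389, and differently numbered ones with -0.3157 to 0.2473. The labels do not state that the numbers mark pairs, so the main fit did not pair them. Any spread shared by number therefore stays in its intervals.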

Additional observations from a re-analysis of the deposited data

How the results depend on the processing

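The 6 probes called higher stayed higher under every alternative in which they were tested: the brightest Gata6 probe by 3.80 to 4.69 (largest adjusted p 0.00152 by limma), the Sox17 probes by 3.50 to 5.0 (0.00123) and 4.07 to 6.37 (0.000778), Sox7 by 1.85 to 2.93 (0.00459), Dab2 by 1.79 to 2.34 (0.00668) and the second Gata6 probe by 1.38 to 3.13 (0.009). With only probes above background on all 12 arrays, 5 probes of these genes were tested and 2 called higher. With 1 or 10 added, no filter on dim probes, or the variance trend with robust estimation, 1 probe of these genes, the dim Hnf4a probe, was called lower, and leaving out a sample in turn gave 0 to 2. With 1 or 10 added or the variance trend, the dimmer Dab2 probe was called higher (7 probes). The sign of probes never called changed for Foxa2 (0.13 with technical array 2 only, 0.14 without retinoic acid replicate 2, 0.06 without undifferentiated replicate 3, and -0.55 to 0.14 with a sample left out), for the brightest Hnf4a probe (0.06 with technical array 1 only, 0.09 and 0.03 without retinoic acid replicates 1 and 3, 0.15 without undifferentiated replicate 2, and -0.20 to 0.15 with a sample left out) and for Cubn (-0.10 with technical array 1 only). The cause was not tested.

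Over all probes, 3725 were higher and 3052 lower, against 2121 and 1432 at an adjusted p under 0.01, and 2365 to 4054 and 1608 to 3648 with a sample left out, the lowest without retinoic acid replicates 1 (2449 and 1642) and 3. With the 75th percentile for scaling 3254 were higher and 3731 lower, with a median difference of all probes of -0.1169 against -0.0473, and 6 probes of the endoderm factors were still higher. Under both scalings by a single value, 1 primitive endoderm regulator rose and 5 fell. With the replicate block 3624 were higher and 3045 lower, 6 probes of the endoderm factors were higher, and of the genes named the call of Esam was lost. Over all alternatives, calls were lost for Esam (6), Erg (3), Tfpi (3), Vwf (3), Actc1 (2) and Eps15 (2), besides Lrp2 and Lrp1. With only probes above background on all 12 arrays, fewer genes were called higher in several lists. Such genes went from 8 to 3 for definitive endoderm and from 1 to 0 for anterior visceral endoderm. They went from 5 to 2 for trophoblast, 4 to 1 for cardiac, 3 to 1 for endothelial and 6 to 3 for fibroblast genes. The parietal list kept 12 and the visceral list went from 6 to 5. Dim probes limit what can be seen of Hnf4a, Afp, Cubn and Gata4.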

Other observations

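Some endoderm genes read differently on their dimmer probes. Sox9, a factor of gut and cartilage, was not called on its brightest probe (-0.58), while another probe rose by 3.59 (limma, adjusted p = 3.13e-05). That probe was above background on 0 of 6 undifferentiated and 6 of 6 treated arrays. Set against the background limit, its mean was at least 28.7-fold higher after treatment, a ratio that does not allow for the spread between samples. Lhx1, a factor of the anterior visceral endoderm, differed by -0.40 on its brightest probe and by 3.06 (limma, adjusted p = 2.15e-05) on another, which was above background on 2 of 6 undifferentiated and 6 of 6 retinoic acid arrays. These dimmer probes passed the filter only through the retinoic acid arrays. Both genes were picked after their values were seen, and which probe reads the transcript was not tested.

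In the order of genes in RefSeq's table, 18 genes lie next to the 9 endoderm factors. Of these 2 were called higher, 1 lower, 7 were not called, 7 were not tested and 1 was not found on the array by name. Among all named genes tested on their brightest probe, 17.7% were called higher and 12.4% lower. A role of position was not tested. Beside Gata6, Mib1, a ubiquitin ligase of Notch signalling, rose by 1.06 (limma, adjusted p = 0.00583) and Rbbp8 differed by -0.04. Beside Sox17, the mitochondrial ribosomal gene Mrpl15 fell by 1.29 (limma, adjusted p = 0.00119) and Rp1 was too dim to test. Beside Hnf4a, Ttpal rose by 0.90 (limma, adjusted p = 0.0222). Alb and Afm, the albumin family genes on either side of Afp, were too dim to test, as were both neighbours of Dab2, Ptger4 and C9.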
